A study of Urocitellus parryii with 3 samples.

Results

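The miR-17-92 cluster and its 2 paralogous clusters were followed in liver from a hibernating rodent, the arctic ground squirrel (Urocitellus parryii). The members were 10 mouse (mmu) entries, chosen by name from the 567 mouse entries on the array: mmu-miR-17, mmu-miR-18a, mmu-miR-19a, mmu-miR-19b, mmu-miR-20a, mmu-miR-20b, mmu-miR-25, mmu-miR-92a, mmu-miR-93 and mmu-miR-106b. Liver was sampled at 3 stages of the year. These were late torpor (LT, spelled "late topor" in the labels), when the animal is cold and inactive, early arousal (EA), when it rewarms, and post-reproduction (PR), outside the hibernation season. Total RNA of animals of the same stage was mixed in equal amounts into 1 pool per stage, and each pool went onto 1 microarray for mouse miRNAs. The number of animals per pool, their age and their strain or origin are not given in the sources used here, and no treatment or allele is named for any stage. With 1 pool and 1 array per stage no comparison has a replicate check, no test across arrays was made, and stage, pool and array cannot be told apart.

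The miR-17-92 cluster is a single transcript cut into several miRNAs, made from a host gene (Mir17hg in the mouse) that Myc and E2F transcription factors switch on. It is known for promoting growth and survival of dividing cells, and in the liver for its rise in regeneration and tumours. The miR-106a-363 cluster on the X chromosome and the miR-106b-25 cluster, which lies in an intron of the DNA replication gene Mcm7, arose from it by duplication. A miRNA finds its targets mainly through its seed, a short stretch near its 5′ end, and the 3 clusters carry the same few seeds. miR-17, miR-20a, miR-20b, miR-93 and miR-106b share 1 seed, whose known targets in mammals include the cell cycle inhibitor Cdkn1a and E2F factors. miR-19a and miR-19b share a seed of their own. miR-25 and miR-92a share another, with the pro-apoptotic gene Bcl2l11 among known targets, and miR-18a has a seed close to that of miR-17.

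In the files the targets of the probes are given on the mouse genome (mm9). The targets of 6 members lie on chromosome 14, between 115442915 and 115443718, over the miR-17-92 cluster. Those of miR-25, miR-93 and miR-106b lie on chromosome 5, between 138606560 and 138607031, over the miR-106b-25 cluster. That of miR-20b lies on chromosome X, at 50095336 to 50095355, in the miR-106a-363 cluster. miR-19b and miR-92a are placed on chromosome 14 in the files, but the X cluster encodes copies of both, and an array cannot tell from which cluster a copy came. Each member had 2 probes, whose targets cover 13 to 21 bases of the miRNA and differ by 1 base within a member. A probe had 10 spots per array, of which 7 to 10 were kept for members. Members with similar sequence may share signal between their probes, and this was not tested.

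Intensity is the brightness of a spot after the scanner program subtracted a fitted background trend. A probe counted as detected on an array if over 50% of its kept spots stood well above background, and a miRNA was measured where a probe was detected on all 3 arrays. Of the 10 members 8 were measured, each with both probes, and of all mouse entries 135 were. miR-17 and miR-18a were not. For comparisons each array was divided by the 75th percentile of its intensities over the probes that all 3 arrays detected, which was 349 intensity units in LT, 350.4 in EA and 398 in PR. A difference below is one of scaled log2 intensities averaged over a miRNA's probes, and its standard error (SE) and interval come from spots only. miR-122, the main miRNA of hepatocytes, had 59409, 51255 and 49887 intensity units at its brightest probe in LT, EA and PR, so all pools carried the defining miRNA of liver.

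The miR-17 seed family had 4 measured members. For each, the intensities given are unscaled means with the SD over spots of the probe with the longer target. mmu-miR-20a, of the miR-17-92 cluster, had 294 ± 21.9 in LT, 301 ± 23.6 in EA and 240.3 ± 13.9 in PR (10 spots each). mmu-miR-20b, its relative in the X cluster, had 134 ± 5.0, 138 ± 5.7 and 116 ± 6.7 in LT, EA and PR. For both, LT and EA overlapped in their spots and each lay wholly above PR. mmu-miR-93, of the miR-106b-25 cluster, had 191 ± 7.5 in LT, 161 ± 6.2 in EA and 159 ± 9.8 in PR. mmu-miR-106b, the first miRNA of that cluster, had 170.1 ± 9.7 in LT, 142.1 ± 6.4 in EA and 141 ± 4.6 in PR. Here LT stood above PR with no shared spot values, while EA and PR overlapped. The EA spots lay wholly below the LT spots in miR-93 and overlapped with them in miR-106b. These statements on overlap, and those on the next members, are for the probe with the longer target unless stated. They rest on unscaled intensities. How often the spots of the other measured miRNAs stood apart was not counted, so they do not set the members apart from these.

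In the miR-19 family, mmu-miR-19a had 51.3 ± 4.6 in LT, 40.5 ± 3.0 in EA and 40.3 ± 3.3 in PR, and spots of all 3 stages overlapped. At its shorter target, a dimmer probe with means of 26.9 in LT and 20.3 in PR, the LT spots lay wholly above the PR spots. The PR mean there is under the 26.6 intensity units of the brightest viral probe of that array, a background entry. mmu-miR-19b had 645 ± 35.4 in LT, 613 ± 39.5 in EA and 496 ± 28.0 in PR, with LT and EA both above all PR spots. The family that shares the miR-92 seed had 2 measured members. mmu-miR-25, of the miR-106b-25 cluster, had 276 ± 22.1 in LT, 229 ± 20.2 in EA and 224 ± 14.4 in PR. mmu-miR-92a, the last miRNA of the miR-17-92 cluster, had 1008 ± 55.8 in LT, 1070.0 ± 79.7 in EA and 872 ± 56.8 in PR. For miR-25 the LT spots lay above the PR spots and the EA spots overlapped with both, whereas for miR-92a the EA spots lay above the PR spots and the LT spots overlapped with both. At the shorter targets of miR-92a and miR-19b the EA spots lay wholly above the LT spots, unlike at the longer ones. At those of miR-20b, miR-93 and miR-106b the LT and PR spots overlapped.

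**Figure D1:**
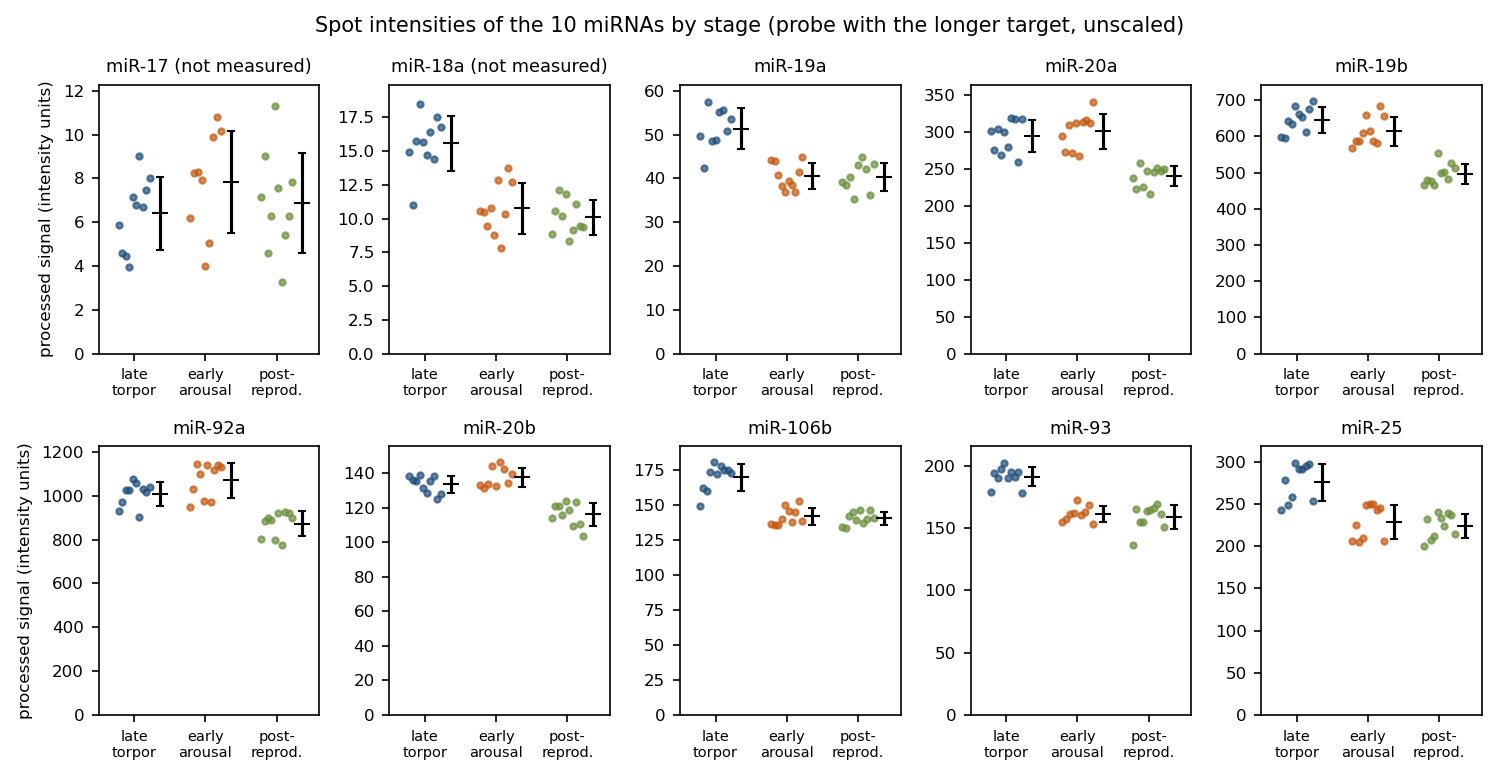
Intensity of each kept spot (points, unscaled, axis from 0) in late torpor, early arousal and post-reproduction for the 10 miRNAs, at the probe with the longer target, with mean and SD over spots (black). The first 2 panels, miR-17 and miR-18a, lie at or under 18.5 intensity units. In miR-106b, miR-93, miR-25, miR-19a and miR-18a the mean of late torpor stands above those of the other stages, which lie close together. In miR-20a, miR-20b, miR-19b and miR-92a the mean of post-reproduction stands below those of late torpor and early arousal.

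The first comparison asked how late torpor differs from post-reproduction. All 8 measured members were higher in LT, where 65.2% of all measured miRNAs were higher and 34.8% lower, and each of the members' 16 probes was higher too. The median difference was 0.44, a fold of 1.35, against 0.13 over all 135 measured miRNAs. The lowest was miR-92a with 0.33 ± 0.02 (SE from spots), or 1.26-fold with a 95% interval of 1.22 to 1.30. The highest was miR-19a with 0.57 ± 0.04, or 1.48-fold (1.41 to 1.56). In between came miR-20b with 0.36, miR-106b with 0.41, miR-93 with 0.43, miR-20a with 0.45, miR-25 with 0.48 and miR-19b with 0.52. In this order the miR-17 family lay together in the middle and the miR-19 pair on top, while miR-92a and miR-25 lay apart and the clusters were mixed. The SD over all measured miRNAs was 0.38.

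A rule of size was used for counts: a difference of at least 0.32 on the log2 scale, over 2 times its SE and of 1 sign in each measured probe. By this rule 8 of 8 members were higher in LT, where 31.1% of all measured miRNAs were, and 0 were lower, where 7.41% were. With 2-fold in place of 0.32 no member was called, against 2.22% of all higher and 0% lower. Since dividing an array by another factor moves every difference alike, the members were also read against the median of all measured miRNAs. All 8 lay above it, where 49.6% of all do, and their median lay 0.31 above it. They ranked from 17th to 42nd from the top of the 135. The count of 8 depended on the scaling: it was 4 with the median over detected probes, 3 with the percentile over all probes and with normexp, 2 with no scaling, 1 with total intensity, quantile normalization and strict detection, and 0 with the unsubstituted percentile over all probes. Their median was 0.25 with no scaling and 0.046 with the percentile over all probes on unsubstituted means, under which miR-20b (-0.031) and miR-92a (-0.058) were lower in LT. Their place above the median of all was 0.15 with normexp background correction, whose offset of 50 shrinks the differences of dim probes, and 0.26 to 0.32 under every other way of processing.

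The second comparison set early arousal against post-reproduction. Again all 8 members were higher, where 55.6% of all measured miRNAs were higher and 44.4% lower, and so were all 16 probes, with a median of 0.39 (1.31-fold) against 0.062 over all measured miRNAs. The members were further apart than in late torpor. miR-19b had the largest difference, 0.58 ± 0.02 or 1.50-fold (1.45 to 1.55), followed by miR-92a with 0.57 ± 0.03 or 1.49-fold (1.44 to 1.54). miR-20b had 0.47 ± 0.02 and miR-20a 0.47 ± 0.03. miR-25 with 0.31, miR-19a with 0.29, miR-93 with 0.19 and miR-106b with 0.15 made up the lower part of the list. By the rule of size 4 of 8 members were higher in EA, where 21.5% of all were, and 0 were lower, where 18.5% were. The 4 were miR-19b, miR-92a, miR-20a and miR-20b. The count of 4 was 6 with the median over detected probes, 5 with outlier spots kept and 3 with normexp. It was 2 with no scaling and with the unsubstituted percentile, and 0 with the percentile over all probes and with strict detection. At 2-fold no member was called, against 2.96% of all higher and 0.741% lower.

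All 8 lay above the median of all measured miRNAs, where 49.6% of all do, and the median member lay 0.33 above it. The ranks ran from 8th for miR-19b to 53rd for miR-106b. The raw direction rested on the scaling here as well. The median was 0.20 with no scaling and 0.015 with the percentile over all probes, under which 4 members were higher and 4 lower. Of the 8 members, 2 were lower with strict detection and with the scanner program's gene signal. With no scaling, the unsubstituted percentile and quantile normalization 1 was lower. Against the median of all it was 0.18 with normexp and 0.26 to 0.36 under the other ways of processing. Both comparisons use the same post-reproduction array, so an error of that array would enter both.

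**Figure D2:**
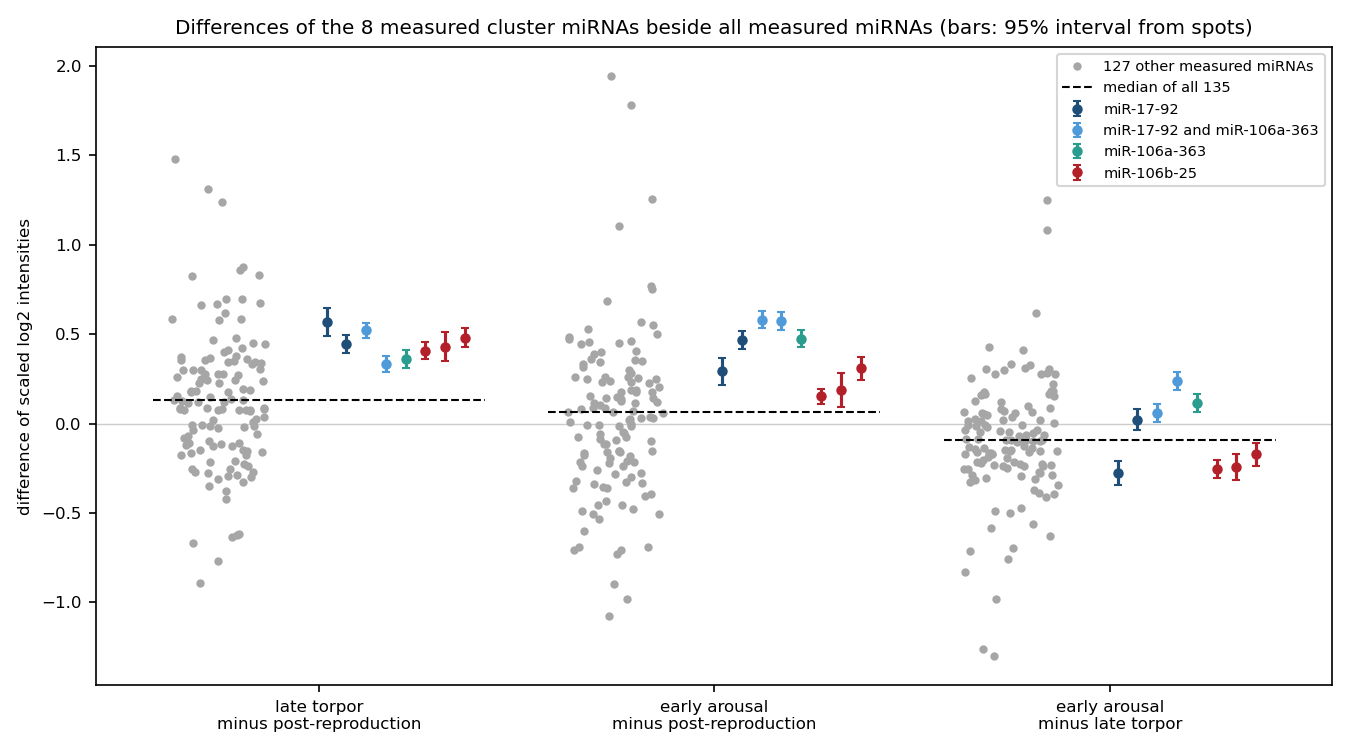
Difference of scaled log2 intensities for the 8 measured members (from left: miR-19a, miR-20a, miR-19b, miR-92a, miR-20b, miR-106b, miR-93 and miR-25, coloured by cluster, bars give the 95% interval from spots) beside the 127 other measured miRNAs (grey, spread sideways at random) in each comparison. Dashed lines mark the median of all 135. All members lie above that line in the first and second comparison, from 0.33 to 0.57 and from 0.15 to 0.58, and on both sides of it in early arousal against late torpor.

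Early arousal was last set against late torpor, both within hibernation. The members as a whole did not stand apart: 4 were higher and 4 lower, where 34.8% of all measured miRNAs were higher and 65.2% lower, with a median of -0.075 against -0.094 over all measured miRNAs. None passed the rule of size, where 5.19% of all were higher and 14.1% lower, nor 2-fold, where 1.48% were higher and 1.48% lower. With the percentile over all probes all 8 were lower and 4 were called lower, and with its unsubstituted form 2 were called higher. The median over detected probes and total intensity each gave 1 called higher, and the brightest probe 1 called lower. Of the 8, 4 lay above the median of all, where 49.6% of all do. Among themselves they divided. The 3 members of the miR-106b-25 cluster were lower in EA, with -0.25 ± 0.03 for miR-106b, -0.24 ± 0.04 for miR-93 and -0.17 ± 0.03 for miR-25. Of the 5 from the other clusters, 4 were at or above 0, namely miR-92a with 0.24 ± 0.03, miR-20b with 0.11 ± 0.03, miR-19b with 0.059 ± 0.02 and miR-20a with 0.023 ± 0.03. Among these 5 the exception was miR-19a, at -0.28 ± 0.03 the lowest of all 8, although it is cut from the same transcript as miR-20a. miR-18a, of the same transcript, was not detected on all 3 arrays but was on both arrays compared here. At its longer target it too was lower in EA, with scaled log2 intensities of -4.50 in LT and -5.05 in EA. Its levels were near background and its spots in LT and EA overlapped.

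Probe by probe the split about 0 was also present, but the probes of the clusters overlapped. All 6 probes of the miR-106b-25 cluster were lower in EA than in LT, from -0.27 to -0.071, where 65.2% of all measured miRNAs were lower. The share over all probes was not counted. The shorter target of miR-25 (-0.071) lay above the median of all measured miRNAs, -0.094, and above the longer target of miR-19b (-0.079). Of the 10 probes of the other clusters 7 were higher, and the 3 lower ones were both probes of miR-19a and 1 of miR-19b. The probes of a member did not always give the same size. Those of miR-92a differed most, by 0.32, with 0.40 for the shorter target and 0.079 for the longer. Those of miR-19b had opposite signs, 0.20 and -0.079. For miR-25 they were -0.071 and -0.27. Over all measured miRNAs with more than 1 probe the median range between probes was 0.064.

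**Figure D3:**
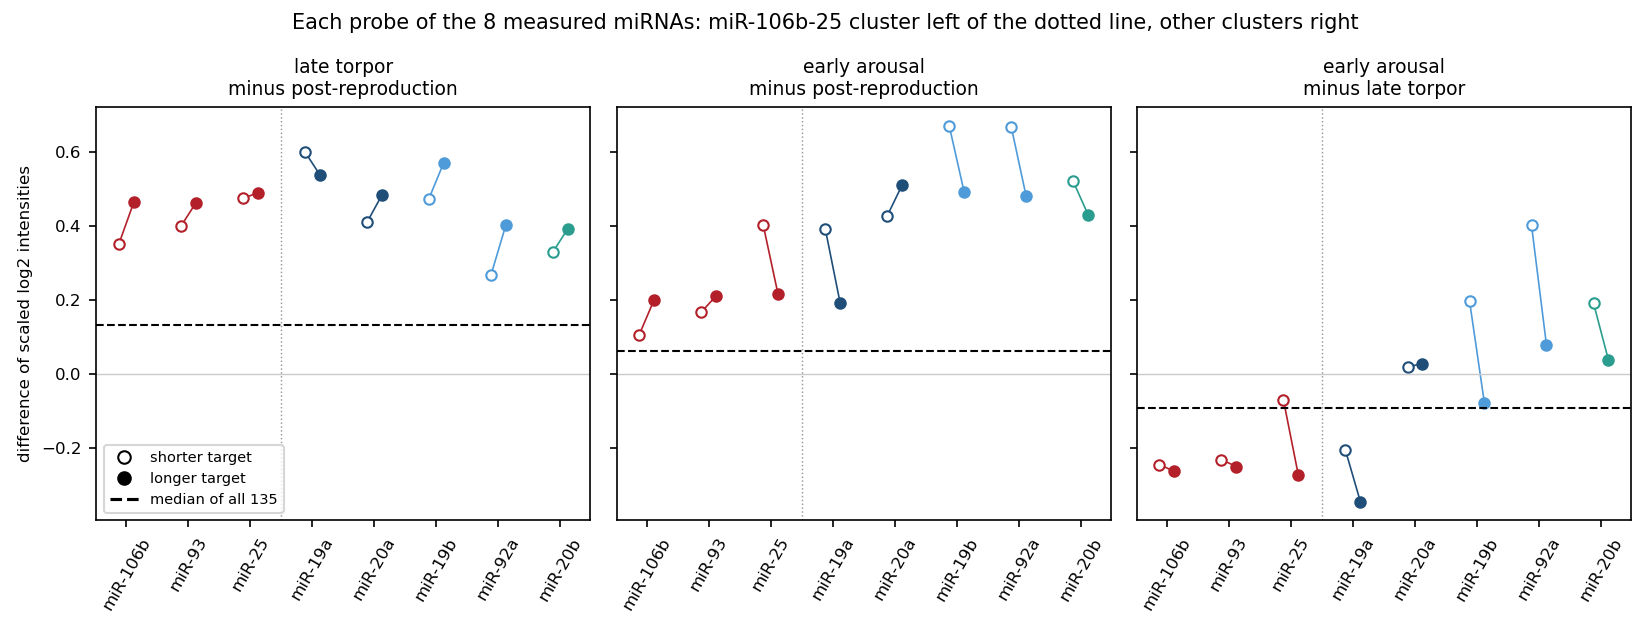
Difference of scaled log2 intensities at each probe of the 8 measured members (open, shorter target, and filled, longer target) in the 3 comparisons, with the median of all 135 measured miRNAs dashed. Left of the dotted line are the members of the miR-106b-25 cluster, which lie within 0.35 to 0.49 in the left panel, 0.10 to 0.40 in the middle one and -0.27 to -0.071 in the right one. The other clusters lie within 0.27 to 0.60, 0.19 to 0.67 and -0.35 to 0.40.

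Read by cluster, the median of miR-106b, miR-93 and miR-25 was 0.43 in LT against PR, 0.19 in EA against PR and -0.24 in EA against LT. For miR-19a, miR-19b, miR-20a, miR-20b and miR-92a it was 0.45, 0.47 and 0.059 in the same comparisons. The first cluster thus stood 0.016 below the others in LT against PR, 0.29 below in EA against PR and 0.30 below in EA against LT. The last 2 of these gaps share the early arousal array, so they are not separate observations of it. The ranges of the clusters overlapped through miR-19a in EA against LT, and through miR-19a and miR-25 in EA against PR. The gap in EA against LT was -0.19 with normexp and -0.34 to -0.27 under the other ways of processing. This contrast was chosen after its values were seen and has no test.

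Read by seed, each measured family held members on both sides of 0 in EA against LT. The miR-17 family held miR-20b and miR-20a above 0 and miR-93 and miR-106b below, with a median of -0.11. In the miR-92 family miR-92a was at 0.24 and miR-25 at -0.17, and in the miR-19 family miR-19b was at 0.059 and miR-19a at -0.28. In LT against PR the families lay close together, with medians of 0.42 for the miR-17 family, 0.54 for the miR-19 pair and 0.41 for the miR-92 pair. In EA against PR they were 0.33, 0.44 and 0.44.

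miR-17 and miR-18a, the first miRNAs of the miR-17-92 cluster, were near background. mmu-miR-17 had 6.40 ± 1.7 in LT, 7.83 ± 2.3 in EA and 6.87 ± 2.3 in PR at its longer target, with 1 of 10, 2 of 9 and 1 of 10 spots well above background. It was detected on no array, and its spots overlapped in all stages. The targets of its probes, 13 and 14 bases, were the shortest among the members, and their part in the low signal was not tested. mmu-miR-18a was detected in LT with 15.6 ± 2.0 and 10 of 10 spots well above background, and in EA with 10.8 ± 1.9 and 7 of 10. In PR it had 10.1 ± 1.3 with 3 of 10 and was not well above background, and its spots in LT and PR overlapped. Its EA and PR spots overlapped as well. Set against the lowest spot well above background on the PR array, 10.7, the LT level of miR-18a was 1.65-fold with the scaling used here. It was 1.26-fold or more under each of the other whole-array scalings and without scaling. Against the lowest level of a detected probe on the PR array it was 1.61-fold. These ratios carry no spot error and PR spots of miR-18a reached 12.2, so they are not lower limits of a difference. For EA against PR the ratio to the lowest spot was under 1 without scaling and with the percentile over all probes in both forms. The levels of miR-17 and miR-18a are under the 22.2 to 26.6 intensity units of the brightest viral probe, a background entry, on the same arrays.

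The rest of the clusters gave no signal above background at these probes. The probes are for mouse miRNAs, and whether the squirrel sequences match them was not tested. A missing signal, as of miR-17 too, is therefore not a measure of absence. The 13 further entries read for them were miR-106a, miR-18b and miR-363 of the X cluster, miR-32 and miR-367, which share the seed of miR-92, and 8 star strands, the usually discarded arms of the same hairpins. None was detected on any array. Their brightest probes had at most 7.82 intensity units, in miR-32 in LT. Of the X cluster, therefore, miR-20b was the one member detected that has no copy in the miR-17-92 cluster.

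miRNAs that mark blood cells also differed between the stages. The 3 red blood cell miRNAs, miR-144, miR-451 and miR-486, had a median of 1.31 in LT against PR, 0.53 in EA against PR and -0.76 in EA against LT. All 3 were measured, none was at 0, and their summed intensity was 4144 in LT, 2507 in EA and 1993 in PR. The 6 measured of 7 leukocyte miRNAs had medians of 0.37, -0.19 and -0.56, with summed intensities of 909, 660.0 and 755, and miR-155 was not detected. They did not move as 1: 5, 2 and 1 of the 6 were higher in the same comparisons. miR-146a was lower in LT against PR (-0.27), and miR-181a was higher in EA against PR (0.47) and EA against LT (0.18). miR-142-5p and miR-150 lay under the brightest viral probe on each array. The members are known to be made in blood cells as well as in liver, and their share from blood in these pools was not tested. The 7 hepatocyte miRNAs had medians of 0.30, 0.16 and -0.033 in the same comparisons, and 7, 6 and 3 of them were higher. In pooled tissue, a change in the number of cells of a type cannot be told apart from a change of RNA per cell.

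The miRNAs whose pattern over the 3 arrays was most like the median of the members were miR-130a, miR-340-5p, miR-29a, miR-30e and miR-16. Likeness was the Euclidean distance between log2 values centred over the arrays, which ran from 0.032 for miR-130a to 0.081 for miR-16. miR-130a, for example, had 0.44 in LT against PR, 0.34 in EA against PR and -0.10 in EA against LT. Among the members, miR-25 and miR-20a were nearest to their common median, with distances of 0.070 and 0.078, and 2 miRNAs that are not members were nearer than either. miR-92a was the farthest with 0.23, and 28 other miRNAs were nearer than it. With 3 arrays such a likeness is a description.

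**Figure D4:**
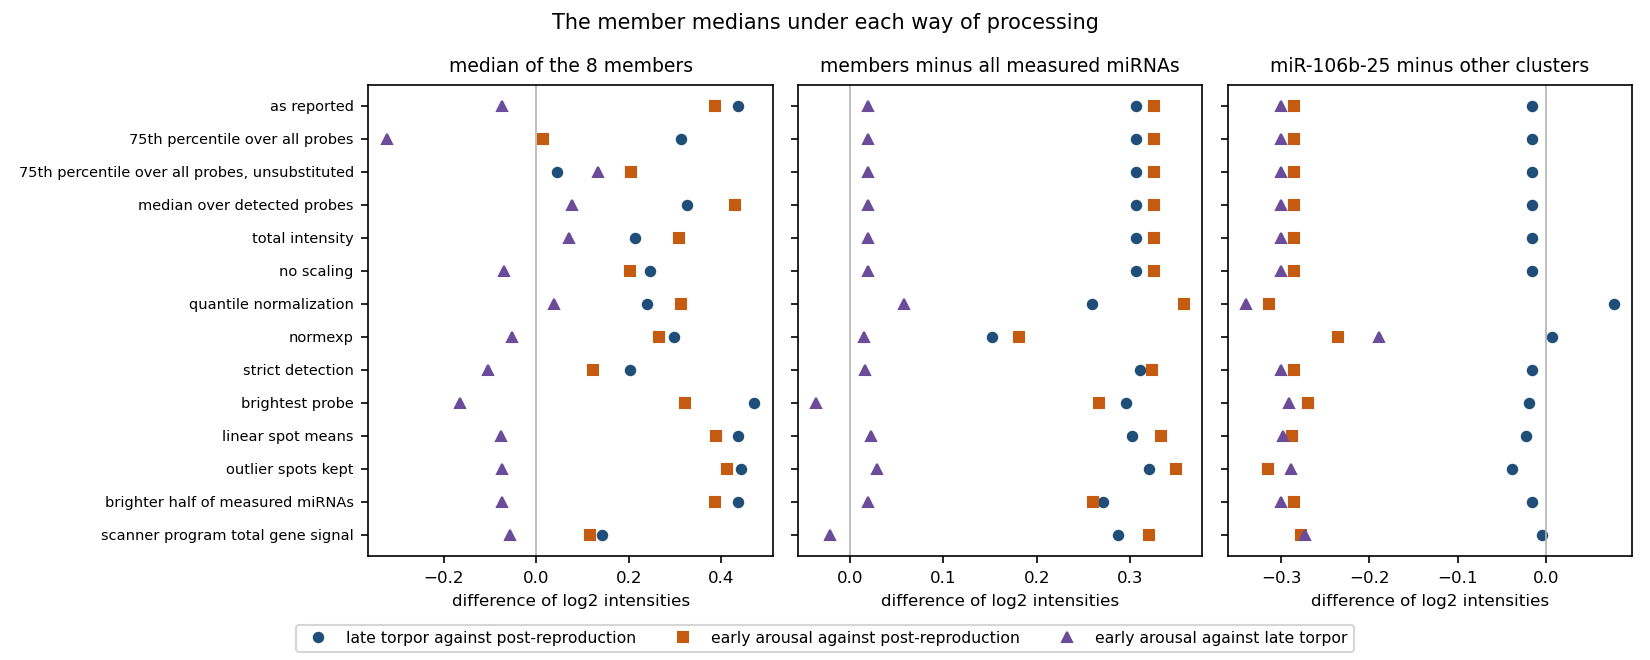
Median of the 8 members (left), that median minus the median of all measured miRNAs (middle) and the miR-106b-25 median minus that of the other clusters (right), in differences of log2 intensities, under each way of processing (rows). The left panel moves with the scaling, from 0.015 to 0.43 in early arousal against post-reproduction, while the middle panel stays at 0.15 to 0.32 in late torpor and 0.18 to 0.36 in early arousal, each against post-reproduction.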

How the data were processed

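The scanner program was Agilent Feature Extraction 9.5.3.1, per the submitters' processing notes. The deposited intensity of a spot is, per the file headers, its signal minus a fitted spatial trend, with local background subtraction off and no scaling between arrays. The flags for outliers and for spots well above background are other values deposited by the authors. The authors' series table held the same intensity at all 12493 spots of each array, with medians of 1.15 (LT), 1.05 (EA) and 1.13 (PR).

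Control spots and outlier spots (280, 398 and 317 of 11540) were left out. Spots at or below 0 were set to the array's lowest spot well above background, which touched no measured member. log2 intensities were averaged over spots and then over probes, after subtraction of the array's 75th percentile over 250 probes. Alternatives covered scaling, normexp (limma 3.58.1), detection, probe and spot summaries, and the background set. The scanner program's gene signal, the cluster contrast and the scalings of the miR-18a ratios were added after the data were seen. The 3 arrays, 1 per stage, limit the precision. Values came from Python 3.11.15. The computation was tested on simulated spots with known folds, which held no variation between arrays or pools. Seed families and clusters are textbook groupings. The members, lists and rules were chosen with earlier results of these data known. All 10 members were to be named, as were the other cluster miRNAs where detected and the 5 miRNAs most alike in pattern. Endothelial and mesenchymal marker medians in LT against PR, EA against PR and EA against LT were 0.024, -0.11 and -0.18, and 0.029, 0.024 and -0.052. Both lists held miRNAs on both sides of 0 in each comparison.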

Additional observations from a re-analysis of the deposited data

How the results depend on the processing

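No paired analysis was possible because each stage has 1 array. The number of members above the median of all measured miRNAs was 8, 8 and 4 in LT against PR, EA against PR and EA against LT under each of the 13 alternatives. Those that only rescale whole arrays could not have changed it. Scaling a whole array left the members' place against that median, and the cluster gaps, as they were. The place moved to 0.15 (LT against PR) and 0.18 (EA against PR) with normexp, to 0.27 with the brightest probe and to 0.26 against the measured miRNAs above the median in brightness (both EA against PR). The cluster gap moved to -0.19 with normexp in EA against LT and, in LT against PR, to 0.077 after quantile normalization. The uncentred medians moved with the scaling. In the order LT against PR, EA against PR and EA against LT they were 0.31, 0.015 and -0.32 with the percentile over all probes, 0.046, 0.21 and 0.13 with its unsubstituted form, and 0.21, 0.31 and 0.071 with the total intensity. After quantile normalization they were 0.24, 0.31 and 0.039. For LT against PR and EA against PR they were 0.25 and 0.20 without scaling, 0.30 and 0.27 with normexp, 0.20 and 0.12 with strict detection, and 0.14 and 0.12 with the scanner program's gene signal. The median over detected probes gave 0.33 (LT against PR) and 0.077 (EA against LT), and the brightest probe 0.32 (EA against PR) and -0.17 (EA against LT). Among single members, miR-20b (-0.031) and miR-92a (-0.058) turned below 0 in LT against PR with the unsubstituted percentile. In EA against PR 4 members turned below 0 with the percentile over all probes, and 2 with strict detection and with the gene signal. There 1 did so with no scaling, the unsubstituted percentile and quantile normalization. The cause was not tested beyond the shift that each scaling adds by construction. That shift moved the median of all measured miRNAs in EA against PR to -0.31 with all probes, from 0.062. The share of higher among all calls by the rule of size in LT against PR was 80.8%, but 37.5% without scaling and 12.1% with the unsubstituted percentile. In EA against PR it was 53.7%, but 21.1% without scaling and 8.33% with all probes, and in EA against LT 26.9%, but 3.90% with all probes and 73.7% with the unsubstituted percentile. Counts of members called under each setting stand beside the results, except for the scanner program's gene signal, which has no spot error and so no calls. Levels under the brightest viral probe, as of miR-17 and miR-18a, limit what can be said of these 2.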

Other observations

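Families of embryonic stem cells whose seeds resemble that of miR-17, the miR-290 to miR-295 cluster and the miR-302 family, with miR-467a, had 23 entries on the array, and 22 were detected in no stage. The exception was miR-291b-5p, itself from such an opposite arm. It was detected in LT with 9.74 and in PR with 13.0 intensity units at its brightest probe, and not in EA with 4.46. Those levels lie under the brightest viral background probe of each array.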
